A study of Mus musculus with 20 samples.

Results

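The genes followed here encode neuropilins, semaphorins and plexins, a family of cell surface guidance molecules and their receptors. They were chosen by their symbols, with earlier results of these data known, as the rows named Nrp1, Nrp2, Plxnb2, Plxnd1, Sema4a, Sema4b, Sema4d and Sema7a in both deposited count tables. All 8 were found in each table, among 16740 genes listed for spleen and peripheral lymph nodes (pLNs) and 16784 genes listed for mesenteric lymph nodes (mLN), and all 8 passed the filter on low counts in both tissues.

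The RNA was sequenced from 20 sorted CD4+ T cell samples of C57BL/6 mice aged 14 weeks. Treg cells were sorted as CD4+YFP+ and Foxp3- cells as CD4+YFP-. WT mice carried Foxp3Cre alone, and DKO mice carried Foxp3Cre together with Tet2/3 fl/fl alleles. Each of the 4 groups (WT Treg, WT Foxp3-, DKO Treg, DKO Foxp3-) had 2 replicates from spleen and pLNs and 3 from mLN. Cre is made as a YFP-Cre fusion from the Foxp3 locus, so the floxed Tet2 and Tet3 alleles are deleted in cells that express or once expressed Foxp3. The YFP- gate of a DKO mouse can hold former Treg cells that have lost Foxp3, and no value here measures the deletion in these cells. The tests answer how the loss of Tet2 and Tet3 in Treg cells goes with the levels of these genes in Treg cells and in the Foxp3- cells beside them.

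Neuropilins are coreceptors with short cytoplasmic tails that bind class 3 semaphorins and vascular endothelial growth factors (VEGF) and pass the signal through plexins. Plexins are the signalling receptors of semaphorins and act on small GTPases, which control adhesion and the cytoskeleton. In T cells, Nrp1 is known as a surface marker of thymus-derived Treg cells, and Sema4a, carried by other immune cells, is known to bind Nrp1 on Treg cells and to restrain AKT there. TET2 and TET3 oxidise 5-methylcytosine at CG dinucleotides, the first step of DNA demethylation.

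The start regions of 3 of these genes are shown as examples, because their levels differed between WT and DKO Treg cells in mLN and because the CG is the substrate of TET enzymes. Nrp1 and its partner Sema4a were lower in DKO and Plxnb2 was higher. Sema4b (starts with 20 and 23 CG) and Sema7a (17 CG) differed there too and are not printed. Each is the 250 bases before the first RefSeq transcription start of the gene (GRCm38.p6), read 5′ to 3′ on the strand of the gene, with every CG in capitals.
Nrp1: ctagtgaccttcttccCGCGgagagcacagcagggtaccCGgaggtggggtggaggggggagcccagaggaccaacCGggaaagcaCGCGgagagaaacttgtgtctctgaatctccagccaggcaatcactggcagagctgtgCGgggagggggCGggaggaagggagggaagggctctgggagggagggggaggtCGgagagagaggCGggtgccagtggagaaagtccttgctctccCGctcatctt
Sema4a: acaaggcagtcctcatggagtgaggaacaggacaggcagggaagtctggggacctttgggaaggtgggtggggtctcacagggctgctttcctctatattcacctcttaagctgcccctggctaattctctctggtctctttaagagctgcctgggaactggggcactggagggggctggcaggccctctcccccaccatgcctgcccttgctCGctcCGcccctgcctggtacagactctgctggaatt
Plxnb2: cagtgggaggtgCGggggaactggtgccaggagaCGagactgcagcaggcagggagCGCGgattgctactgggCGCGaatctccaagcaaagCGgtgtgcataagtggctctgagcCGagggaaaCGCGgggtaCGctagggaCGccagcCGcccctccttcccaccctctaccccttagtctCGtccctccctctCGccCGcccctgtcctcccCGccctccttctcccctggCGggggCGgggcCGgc
These stretches matched the mouse build NCBIM37 (mm9), the build of the deposited counts, exactly once each, at chr8:130882723-130882972 on the plus strand for Nrp1, chr3:88265105-88265354 on the minus strand for Sema4a and chr15:89011219-89011468 on the minus strand for Plxnb2. All 3 end at the base before the annotated start of their gene. The genes themselves span chr8:130882973-131029362 (Nrp1), chr3:88239881-88265104 (Sema4a) and chr15:88985979-89011218 (Plxnb2). The Nrp1 stretch held 11 CG, the Sema4a stretch 2 and the Plxnb2 stretch 20, against a median of 6 and quartiles of 2 and 16 over 32851 RefSeq starts of the same length, of which 92.1% held at least 1. The other 3 RefSeq starts of Sema4a held 3, 13 and 6 CG and the other start of Plxnb2 13, so these counts depend on the start. The 8 genes have 15 RefSeq starts in all, and their CG counts ran from 1 (a Sema4d start) to 32 (Nrp2). The forkhead motif GTAAACA, searched on both strands (reverse complement TGTTTAC), was in 0 of these 15 stretches and in 3.17% of all starts. No methylation was measured in these libraries, and the letters alone say nothing of binding or of methylation in these cells.

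The 8 libraries from spleen and pLNs held 13525932 to 15253141 reads assigned to genes and the 12 from mLN 9998478 to 15449158. Values are given as CPM (read counts scaled to a common library size by TMM, the trimmed mean of M values), and a count of 3 stood at 0.172 to 0.299 CPM. Foxp3 was 153 to 419 CPM in Treg libraries and 0.211 to 2.75 CPM in Foxp3- libraries, so every library matched its sorted fraction. Tet2 in Treg cells of mLN stood at 10.4, 10.4 and 10.8 CPM in the WT libraries and at 11.4, 7.69 and 12.8 CPM in the DKO libraries. Both genes had a higher mean in DKO Treg cells of spleen and pLNs, Tet2 at 2.08 and 1.11 CPM in WT against 8.01 and 2.05 CPM in DKO for replicates 1 and 2 (overlapping), and Tet3 at 31.0 and 30.6 CPM against 61.0 and 38.1 CPM. Such reads are summed over the whole gene, not over the floxed exons, so they are no check of the deletion. Replicates were least alike in DKO cells. In spleen and pLNs the chi-square per degree of freedom between the 2 replicates was 59.4 in DKO Treg and 92.8 in DKO Foxp3- cells against 4.55 and 6.19 in WT, and with 2 libraries it cannot be said which of them stands apart. In mLN, DKO Foxp3- replicate 2 stood apart from the other 2 libraries of its group. Leaving out a library of spleen and pLNs leaves its group with 1 library, which is then assumed to vary like the other groups. Without DKO replicate 1 of both cell types the WT pairs alone give the spread, so only the value is given for that setting, which was chosen after seeing the data. The labels do not say which of the 2 DKO mice from spleen and pLNs had the larger spleen.

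The abundance of the 8 transcripts relative to each other can only be compared per length, in the authors' TPM (transcript counts scaled by length and library size). In mLN WT Treg cells, Sema4d was highest at 193 ± 9.88 TPM (SD, n = 3) and Nrp1 followed at 102 ± 4.23 TPM. Sema4b (28.0 ± 3.11 TPM) and Sema4a (22.7 ± 3.46 TPM) came next with overlapping replicates, and Plxnd1 (6.27 ± 0.695), Sema7a (1.45 ± 0.175), Plxnb2 (1.14 ± 0.0829) and Nrp2 (0.469 ± 0.0536 TPM) followed. In mLN DKO Treg cells the order was Sema4d (148 ± 6.52 TPM), Nrp1 (36.1 ± 3.85), Sema4b (16.2 ± 2.28), Plxnb2 (12.7 ± 3.60), Sema4a (6.42 ± 1.96), Plxnd1 (5.08 ± 1.46), Sema7a (4.27 ± 2.53) and Nrp2 (0.344 ± 0.286). Plxnb2 had thus passed Sema4a, Plxnd1 and Sema7a in TPM, its replicates overlapping with those of Sema4b, and the replicates of Sema4a, Plxnd1 and Sema7a overlapped from neighbour to neighbour. In mLN WT Foxp3- cells, Sema4d (160.2 ± 10.3 TPM) was followed by Sema4a (74.9 ± 3.57) and Sema4b (22.6 ± 1.45), and Nrp1 was at 6.95 ± 0.538 TPM. Plxnd1 (1.80 ± 0.0598) and Sema7a (1.79 ± 0.225) overlapped there, and Plxnb2 was lowest at 0.354 ± 0.130 TPM. In mLN DKO Foxp3- cells, Sema4d stood at 130.1 ± 13.5 TPM and Sema4a at 36.2 ± 20.8 TPM. Sema4b (19.6 ± 4.37), Nrp1 (13.9 ± 5.86), Plxnb2 (4.83 ± 5.68), Sema7a (3.81 ± 2.24) and Plxnd1 (2.29 ± 1.07 TPM) followed, and from Sema4a to Plxnd1 the replicates of each neighbouring pair overlapped.

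The same 2 transcripts led in WT Treg cells of spleen and pLNs, Sema4d at 121 ± 5.75 TPM and Nrp1 at 105 ± 20.6 TPM (n = 2), and their replicates overlapped. Sema4b (15.5 ± 0.984) and Sema4a (13.8 ± 2.43 TPM) overlapped as well, and the other 4 lay between 0.279 ± 0.0605 TPM (Nrp2) and 2.17 ± 0.466 TPM (Plxnd1). In WT Foxp3- cells of spleen and pLNs the order was Sema4d (105 ± 3.92 TPM), Sema4a (55.5 ± 0.846), Nrp1 (23.9 ± 6.21), Sema4b (14.8 ± 0.358) and Sema7a (4.09 ± 1.24), with Nrp2, Plxnd1 and Plxnb2 under 1 TPM and no neighbours overlapping. In DKO Treg cells Sema4d (151 ± 56.0 TPM) and Nrp1 (55.4 ± 0.0687 TPM) led, and Plxnb2 (6.32 ± 4.93), Sema4a (6.31 ± 0.647), Plxnd1 (5.19 ± 3.26) and Sema7a (3.21 ± 2.58 TPM) overlapped from neighbour to neighbour.

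**Figure D1:**
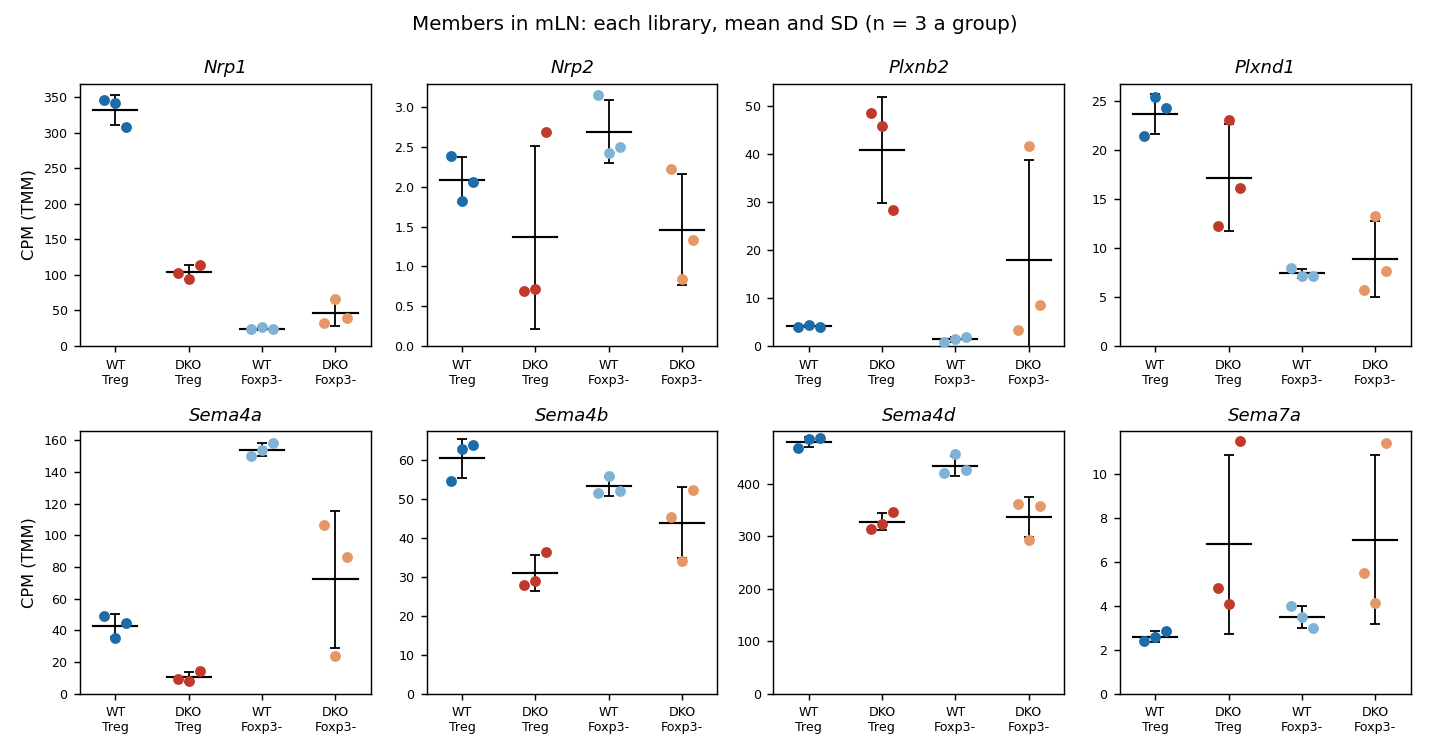
Levels in mLN, 1 panel per gene: the vertical axis is CPM on a linear scale from 0, the horizontal axis the 4 groups (WT and DKO, Treg and Foxp3- cells), points are single libraries (n = 3 per group), and the bar and whiskers are mean ± SD, cut at 0. Nrp1 is lower in the 3 DKO Treg libraries (94.4 to 114 CPM) than in the 3 WT Treg libraries (308 to 346 CPM), and Plxnb2 is high in all 3 DKO Treg libraries and in 1 DKO Foxp3- library (41.7 CPM).

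Nrp1, the coreceptor that marks thymus-derived Treg cells, was called lower in DKO Treg cells in both tissues, in mLN in every alternative and in spleen and pLNs in some. In mLN it was 346, 341 and 308 CPM in WT Treg cells and 103, 94.4 and 114 CPM in DKO Treg cells. The libraries of spleen and pLNs held 478 and 368 CPM in WT against 157 and 201 CPM in DKO Treg cells. Every DKO Treg library lay below every WT Treg library of its tissue. The log2 fold change was -1.68 (SE 0.19, 3.20-fold lower) in mLN, with an adjusted p of 0.000166 by edgeR's quasi-likelihood test with Benjamini-Hochberg adjustment over all genes tested. It was -1.24 (SE 0.27, 2.36-fold lower) in spleen and pLNs, with an adjusted p of 0.0424 by the same test, whose threshold is 0.05. The mLN call was kept in all 14 alternatives tried. The call in spleen and pLNs was lost without DKO Treg replicate 1 (-1.07, adjusted p 0.514), without WT Treg replicate 1 (-1.04, adjusted p 0.435) and without WT Treg replicate 2 (-1.41, adjusted p 0.347), and also with a stricter filter on low counts, edgeR's filterByExpr (adjusted p 0.134), a robust prior on the dispersion (0.132) or the replicate number as a block (0.0698). Cells sorted in bulk do not tell whether fewer cells carried a transcript or each cell carried less, here and in every comparison that follows.

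In Foxp3- cells Nrp1 was called in mLN, where it was higher in DKO, and not in spleen and pLNs. In mLN, Nrp1 was 23.9, 26.3 and 23.4 CPM in WT Foxp3- cells and 32.6, 66.6 and 39.9 CPM in DKO Foxp3- cells. All 3 DKO libraries lay above the WT libraries, with the highest value in DKO Foxp3- replicate 2. The log2 fold change was 0.92 (SE 0.20, 1.89-fold higher, edgeR adjusted p 0.0234). Without DKO Foxp3- replicate 2 it was 0.57, under 1.5-fold (adjusted p 0.0104), and without WT Foxp3- replicate 1, 2 or 3 it was 0.91, 0.97 and 0.90 with adjusted p of 0.107, 0.0871 and 0.0986. The call was also lost with edgeR on the 2 groups alone (adjusted p 0.159) and with the robust prior (0.0555). In spleen and pLNs, Nrp1 was 117 and 85.0 CPM in WT against 49.0 and 88.8 CPM in DKO Foxp3- cells, which overlapped (-0.55, SE 0.27, edgeR adjusted p 0.421). Without DKO Foxp3- replicate 1 the value was -0.19 (adjusted p 1), and without replicate 2 it was -1.04 and called (adjusted p 0.00686). Of 5 Treg markers, 2 were called higher in mLN DKO Foxp3- cells too, where 3.12% of all genes were. Ctla4, an inhibitory receptor of Treg and activated T cells, went from 26.4 to 97.7 CPM (1.89, edgeR adjusted p 0.00979). Ikzf2, which encodes Helios, went from 26.3 to 50.1 CPM (0.93, edgeR adjusted p 0.016), while Foxp3 stayed at or under 2.75 CPM. Il2ra (16.2 CPM in WT and 19.9 CPM in DKO) and Tnfrsf18 (64.5 and 89.0 CPM) were not called. The sum of the 5 Treg markers (Foxp3, Il2ra, Ctla4, Ikzf2, Tnfrsf18) was 133 to 137 CPM in mLN WT Foxp3- cells and 177, 348 and 249 CPM in DKO Foxp3- replicates 1, 2 and 3. In DKO Foxp3- replicates 1 and 2 of spleen and pLNs the sum was 707 and 226 CPM, where Nrp1 was 49.0 and 88.8 CPM. The part of this sum in the Nrp1 result was not tested.

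The genotype effect on Nrp1 differed between the 2 cell types in mLN. The interaction of genotype and cell type was -2.60 on the log2 scale (SE 0.28, edgeR adjusted p 0.00588), and Nrp1 was the 1 member called among the 8, where 0.28% of 16784 genes tested were called (47 genes). With the mouse as a replicate block the count of genes called was 118, and Nrp1 had an interaction of -2.54 (adjusted p 0.00822). Sema4b had the next smallest p (-0.68, SE 0.20, unadjusted p 0.00513, adjusted p 0.193), and the other 6 members had adjusted p of at least 0.522. Without DKO Foxp3- replicate 2, Sema4a (-1.37, adjusted p 0.00839) and Sema4b (-0.87, adjusted p 0.0103) were called as well. For spleen and pLNs, 0 members were called for the interaction by edgeR, 0 had an unadjusted p under 0.05 (5.53% of all genes), and 0 were called by DESeq2. Among all genes there, 0.00611% were called (1 gene). Without DKO replicate 1 of both cell types the interaction was -0.88 for Nrp1 and -1.05 for Sema4a.

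Between cell types, Nrp1 was higher in Treg cells in all 4 comparisons. It was 13.5-fold higher in Treg than in Foxp3- cells of WT mLN (log2 fold change 3.75, SE 0.21, edgeR adjusted p 2.52e-07) and 2.23-fold higher in DKO mLN (1.16, SE 0.19, adjusted p 0.00123). Treg cells of spleen and pLNs were 4.19-fold higher than Foxp3- cells in WT (2.07, SE 0.27, adjusted p 0.00101) and 2.60-fold higher in DKO (1.38, SE 0.27, adjusted p 0.0123). Nrp1 in WT Foxp3- cells was 117 and 85.0 CPM in spleen and pLNs and 23.4 to 26.3 CPM in mLN. The 2 tables were scaled separately, so this difference was not tested. Without WT Foxp3- replicate 2 the WT call in spleen and pLNs was lost (1.86, adjusted p 0.0544), and the DKO call there was lost without DKO Treg replicate 1 (1.54, adjusted p 0.0926) or replicate 2 (1.18, adjusted p 0.0961), with edgeR on the 2 groups alone (adjusted p 0.0801), with filterByExpr (adjusted p 0.0688) and with a robust prior (adjusted p 0.0837). Comparisons of cell types and of genotypes share libraries, so their results are not independent.

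Nrp2, the second neuropilin, was scarce, with 9 to 65 reads per library. It was 0.687 to 2.68 CPM in mLN libraries of Treg cells and 1.32 to 1.77 CPM in those of spleen and pLNs, and 0.844 to 5.23 CPM in Foxp3- libraries. Treg cells of mLN held 2.38, 1.82 and 2.07 CPM in WT against 0.687, 0.719 and 2.68 CPM in DKO, so the groups overlapped through DKO replicate 3. The log2 fold change was -0.63 (SE 0.50, edgeR adjusted p 0.422), and -1.56 (adjusted p 0.0286) without DKO Treg replicate 3. The value for spleen and pLNs was -0.01 (SE 0.56, adjusted p 1). Between WT cell types of spleen and pLNs Nrp2 was lower in Treg cells without overlap (1.77 and 1.32 CPM against 4.79 and 5.23 CPM, log2 fold change -1.69, SE 0.55), not called by the 4-group edgeR fit (adjusted p 0.133) but called on the 2 groups alone by edgeR (-1.71, adjusted p 1.9e-08) and DESeq2 (-1.70, adjusted p 0.00193). In the 4-group edgeR fit no comparison was called for Nrp2. In Foxp3- cells of spleen and pLNs, where WT libraries held 4.79 and 5.23 CPM and DKO libraries 1.07 and 4.0 CPM, the log2 fold change was -0.99 (SE 0.53, edgeR adjusted p 0.47), -0.33 (adjusted p 1) without DKO Foxp3- replicate 1 and -2.22 (adjusted p 0.0033) without replicate 2.

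Plxnb2, a plexin that binds class 4 semaphorins, had the largest log2 fold change of the 8 between DKO and WT in both cell types and both tissues. Treg cells of mLN held 4.03, 4.47 and 4.03 CPM in WT against 48.7, 45.8 and 28.3 CPM in DKO. Every DKO library lay well above the WT libraries, and the difference was 9.77-fold (3.29, SE 0.67, edgeR adjusted p 0.00463), called in all 14 alternatives. Treg cells of spleen and pLNs held 5.69 and 4.45 CPM in WT against 30.8 and 11.4 CPM in DKO mice, with no overlap but a wide gap between the DKO replicates. The log2 fold change there was 2.06 (SE 0.74) and not called by the 4-group edgeR fit (adjusted p 0.145), though called on the 2 Treg groups alone by edgeR (adjusted p 0.00991) and DESeq2 (adjusted p 0.000442). Without DKO Treg replicate 1 it was 1.17 (adjusted p 0.827) and without replicate 2 it was 2.60 (adjusted p 0.112).

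In Foxp3- cells, Plxnb2 was high in a single DKO library of each tissue. In mLN it was 0.851, 1.55 and 1.80 CPM in WT against 3.37, 41.7 and 8.49 CPM in DKO, and in spleen and pLNs 1.44 and 1.29 CPM in WT against 49.5 and 5.33 CPM in DKO. The DKO libraries were all above the WT libraries, and the highest were replicate 2 in mLN and replicate 1 in spleen and pLNs. The log2 fold change was 3.69 (SE 0.75, edgeR adjusted p 0.0192) in mLN and 4.32 (SE 0.86, edgeR adjusted p 0.0442) in spleen and pLNs. Without mLN DKO Foxp3- replicate 2 it was 2.09 and still called, and without DKO Foxp3- replicate 1 of spleen and pLNs it was 1.95 and not called (adjusted p 0.172). Both calls were also lost when any 1 WT Foxp3- library was left out, with adjusted p of 0.106, 0.0914 and 0.0806 in mLN and 0.489 and 0.755 in spleen and pLNs. They were lost as well with edgeR on the 2 groups alone (adjusted p 0.139 and 0.574) and with the robust prior (0.0778 and 0.402), and the one in spleen and pLNs with filterByExpr (0.278) and the number block (0.0632). Between cell types, Plxnb2 was not called by the 4-group edgeR fit in WT mice (1.58 in mLN, adjusted p 0.239, and 1.88 in spleen and pLNs, adjusted p 0.368) or in DKO mice (1.18, adjusted p 0.198, and -0.38, adjusted p 0.863). Fits of the 2 WT groups alone called it in both tissues (1.56 to 1.89). The sum of the 5 Treg markers was highest in these libraries as well, at 707 CPM in DKO Foxp3- replicate 1 of spleen and pLNs against 226 CPM in replicate 2 and 199 to 220.4 CPM in WT, and its part in the Plxnb2 result was not tested. In DKO mice the comparison of cell types turned on the same libraries, being 2.76 (adjusted p 1.63e-05) without mLN DKO Foxp3- replicate 2 and 1.99 without DKO Foxp3- replicate 1 of spleen and pLNs.

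Plxnd1, the plexin that binds Sema3e, was a Treg gene in both genotypes. In mLN it was 21.4, 25.4 and 24.3 CPM in WT Treg cells, 7.92, 7.16 and 7.18 CPM in WT Foxp3- cells, 12.3, 23.1 and 16.1 CPM in DKO Treg cells and 5.77, 13.2 and 7.69 CPM in DKO Foxp3- cells. The WT cell types did not overlap, and the DKO cell types did. Treg cells held 3.19-fold more in WT mLN (1.68, SE 0.27, edgeR adjusted p 0.00118) and 1.92-fold more in DKO mLN (0.94, SE 0.27, adjusted p 0.0287). Its level in spleen and pLNs was 11.7 and 8.77 CPM in WT Treg, 3.57 and 3.30 CPM in WT Foxp3-, 24.8 and 12.2 CPM in DKO Treg and 5.02 and 3.41 CPM in DKO Foxp3- cells. Here neither pair of cell types overlapped, and Treg cells were 2.97-fold higher in WT (1.57, SE 0.36, adjusted p 0.0281) and 4.37-fold higher in DKO mice (2.13, SE 0.35, adjusted p 0.0046). Between genotypes Plxnd1 was not called: in Treg cells the log2 fold change was -0.46 (SE 0.26, edgeR adjusted p 0.24) in mLN and 0.86 (SE 0.33, adjusted p 0.174) in spleen and pLNs, and in Foxp3- cells 0.27 (adjusted p 0.619) and 0.30 (adjusted p 0.802). The value in Treg cells of spleen and pLNs was 0.26 (adjusted p 0.879) without DKO Treg replicate 1, the higher library, and 1.27 (adjusted p 0.0352) without replicate 2.

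The cell type calls of Plxnd1 were lost in some alternatives. In WT spleen and pLNs the call was lost when any 1 of the 4 libraries was left out (1.35 to 1.76, adjusted p 0.131 to 0.348) and with filterByExpr (0.0904). In DKO spleen and pLNs it was lost without DKO Treg replicate 1 (1.52, adjusted p 0.0919). In DKO mLN it was lost without DKO Foxp3- replicate 1 (0.68, adjusted p 0.0925), DKO Foxp3- replicate 3 (0.84, adjusted p 0.0964) or DKO Treg replicate 2 (0.66, adjusted p 0.133), and on the 2 groups alone with edgeR (0.173) or DESeq2 (0.09). The WT mLN call was kept in all 15 alternatives tried.

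**Figure D2:**
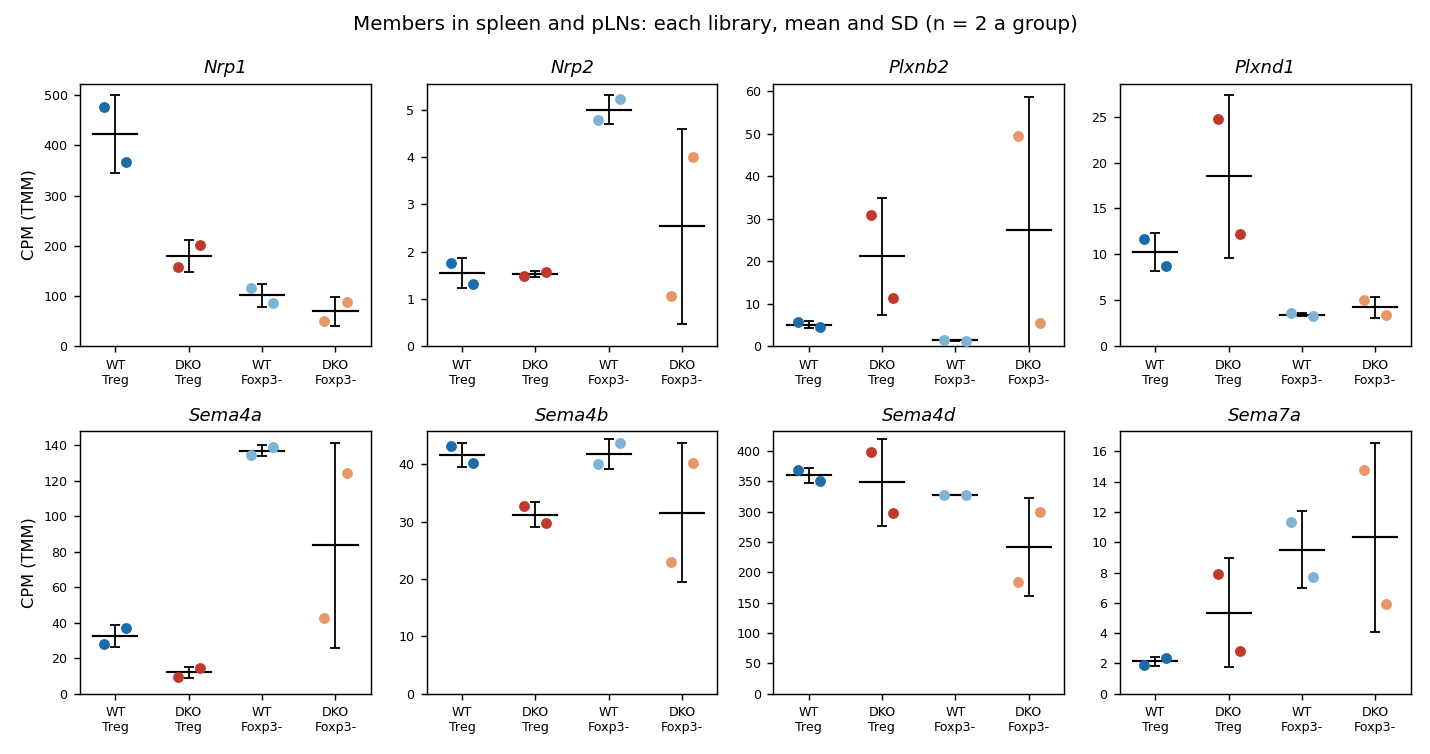
Levels in spleen and pLNs, 1 panel per gene: the vertical axis is CPM on a linear scale from 0, the horizontal axis the 4 groups, points are single libraries (n = 2 per group), and the bar and whiskers are mean ± SD, cut at 0. Nrp1 is lower in both DKO Treg libraries (157 and 201 CPM) than in both WT Treg libraries (478 and 368 CPM), and Plxnb2 reaches 49.5 CPM in 1 DKO Foxp3- library.

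Sema4a, the class 4 semaphorin known to bind Nrp1 on Treg cells, was higher in Foxp3- than in Treg cells and was lower in DKO than in WT Treg cells of mLN. In mLN it was 49.1, 35.2 and 44.8 CPM in WT Treg cells and 9.47, 8.27 and 14.5 CPM in DKO Treg cells, with no overlap. The difference was 4.02-fold (-2.01, SE 0.41, edgeR adjusted p 0.00509), called in all 14 alternatives. Its level in spleen and pLNs was 28.1 and 36.8 CPM in WT against 9.67 and 14.3 CPM in DKO Treg cells, again with no overlap, at -1.44 (SE 0.38) and not called by the 4-group edgeR fit (adjusted p 0.0752). DESeq2 called it on the same 4 groups (-1.42, adjusted p 0.026), as did edgeR on the 2 Treg groups alone (-1.44, adjusted p 0.00411).

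In Foxp3- cells Sema4a varied most within the DKO groups. In mLN it was 150.0, 154 and 158 CPM in WT Foxp3- cells and 107, 23.6 and 86.1 CPM in DKO Foxp3- cells, where replicate 2 was lowest. The libraries of spleen and pLNs held 135 and 139 CPM in WT against 42.9 and 124 CPM in DKO Foxp3- cells, where replicate 1 was lowest. The DKO libraries were below the WT libraries in both tissues, but the difference was not called in mLN (-1.10, SE 0.37, edgeR adjusted p 0.129) or in spleen and pLNs (-0.71, SE 0.36, adjusted p 0.442). Without mLN DKO Foxp3- replicate 2 it was -0.66 and called (adjusted p 0.0434), without mLN DKO Foxp3- replicate 1 it was -1.49 (adjusted p 0.0207). In spleen and pLNs it was -0.14 (adjusted p 1) without DKO Foxp3- replicate 1, which leaves the higher library, and -1.67 (adjusted p 0.000201) without replicate 2.

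Treg cells held less Sema4a than Foxp3- cells in all 4 comparisons of cell types. In mLN they were 3.58-fold lower in WT (-1.84, SE 0.38, edgeR adjusted p 0.00598) and 6.72-fold lower in DKO (-2.75, SE 0.42, adjusted p 0.000634). Those of spleen and pLNs were 4.21-fold lower in WT (-2.07, SE 0.38, adjusted p 0.00728) and 6.97-fold lower in DKO (-2.80, SE 0.39, adjusted p 0.00167). The larger DKO figures are not shown to differ from the WT ones, since the interaction was -0.91 in mLN (adjusted p 0.608) and -0.73 in spleen and pLNs (adjusted p 0.998). Leaving out any 1 library lost the WT call in spleen and pLNs (-2.28 to -1.89, adjusted p 0.0751 to 0.194), as did filterByExpr (0.0648) and the robust prior (0.17), and the DKO call there was lost without DKO Treg replicate 1 (-2.55, adjusted p 0.109) or with the robust prior (0.0936), and was -1.84 without DKO Foxp3- replicate 2.

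Sema4b, another class 4 semaphorin, was lower in mLN DKO Treg cells. It was 54.7, 62.9 and 63.7 CPM in WT against 28.0, 29.0 and 36.4 CPM in DKO Treg cells, with no overlap. The difference was 1.94-fold (-0.96, SE 0.14, edgeR adjusted p 0.000863), called in all 14 alternatives. In mLN Foxp3- cells it was 51.6, 55.9 and 52.2 CPM in WT against 45.5, 34.1 and 52.2 CPM in DKO (-0.28, SE 0.14, adjusted p 0.318). Spleen and pLNs held 43.2 and 40.2 CPM in WT Treg, 32.8 and 29.7 CPM in DKO Treg, 40.0 and 43.7 CPM in WT Foxp3- and 23.0 and 40.2 CPM in DKO Foxp3- cells. The Treg groups there did not overlap, but neither genotype comparison was called (-0.42, SE 0.22, adjusted p 0.318 in Treg cells, and -0.41, SE 0.22, adjusted p 0.487 in Foxp3- cells). The latter was -0.064 (adjusted p 1) without DKO Foxp3- replicate 1 and -0.87 (adjusted p 0.00448) without replicate 2. Between WT cell types the log2 fold change of Sema4b was 0.18 in mLN and -0.01 in spleen and pLNs, neither called, and in DKO mLN it was lower in Treg cells by less than 1.5-fold (-0.50, SE 0.14, adjusted p 0.0304).

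Sema4d, which encodes CD100, the ligand of Plxnb1 and CD72, was the most abundant member in TPM in every group, and its differences in CPM stayed under 1.5-fold with all libraries. Treg cells of mLN held 468, 485 and 486 CPM in WT against 313, 323 and 345 CPM in DKO, with no overlap and a small spread. The log2 fold change was -0.55 (SE 0.09, edgeR adjusted p 0.0011), which passed the test but not the 1.5-fold minimum. In mLN Foxp3- cells it was 421, 456 and 425 CPM in WT against 361, 293 and 356 CPM in DKO, also without overlap and also under 1.5-fold (-0.36, SE 0.09, adjusted p 0.0351). Spleen and pLNs held 369 and 351 CPM in WT against 399 and 298 CPM in DKO Treg cells, which overlapped (-0.05, SE 0.22, adjusted p 0.962). WT Foxp3- cells there held 327 CPM in both libraries and DKO Foxp3- cells 185 and 299 CPM (-0.44, SE 0.22, adjusted p 0.45), which became -0.13 (adjusted p 1) without DKO Foxp3- replicate 1 and -0.82, over 1.5-fold, without replicate 2 (adjusted p 0.00673). Between DKO cell types of spleen and pLNs it was 0.53 in CPM (adjusted p 0.299), while the mean TPM was 151 in Treg and 89.2 in Foxp3- cells.

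Sema7a, a GPI-anchored semaphorin that binds Plxnc1 and integrins, was low in Treg cells and was higher in DKO than in WT Treg cells of mLN. In mLN it was 2.38, 2.56 and 2.85 CPM in WT against 4.81, 4.10 and 11.5 CPM in DKO Treg cells, with no overlap and the highest value in DKO replicate 3. That library also had the highest sums of B cell markers (104 CPM against 42.5 and 39.0 CPM in DKO replicates 1 and 2) and of myeloid markers (54.7 CPM against 14.6 and 26.8 CPM), whose part in the result was not tested. The difference was 2.60-fold (1.38, SE 0.43, edgeR adjusted p 0.0378). It was 0.78 and not called without DKO Treg replicate 3 (adjusted p 0.181), and not called without WT Treg replicate 1, 2 or 3 (adjusted p 0.118, 0.108 and 0.091). In mLN Foxp3- cells it was 4.0, 3.51 and 2.99 CPM in WT against 5.50, 4.15 and 11.4 CPM in DKO, where replicate 3 was again highest (0.99, SE 0.42, adjusted p 0.216). In spleen and pLNs it was 1.92 and 2.37 CPM in WT Treg, 7.90 and 2.80 CPM in DKO Treg, 11.3 and 7.72 CPM in WT Foxp3- and 14.8 and 5.93 CPM in DKO Foxp3- cells. The genotype difference there was 1.32 in Treg cells (SE 0.52, adjusted p 0.179) and 0.12 in Foxp3- cells (adjusted p 0.996). Without DKO replicate 1 of the cell type these were 0.38 (adjusted p 0.879) and -0.69 (adjusted p 1), and without replicate 2 they were 1.87 (adjusted p 0.0601) and 0.63 (adjusted p 0.382). WT Treg cells of spleen and pLNs held 4.42-fold less than WT Foxp3- cells (-2.14, SE 0.52, adjusted p 0.0406), a call lost when any 1 of the 4 libraries was left out (-2.39 to -1.84, adjusted p 0.162 to 0.458), with filterByExpr (0.13) or with the robust prior (0.168).

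**Figure D3:**
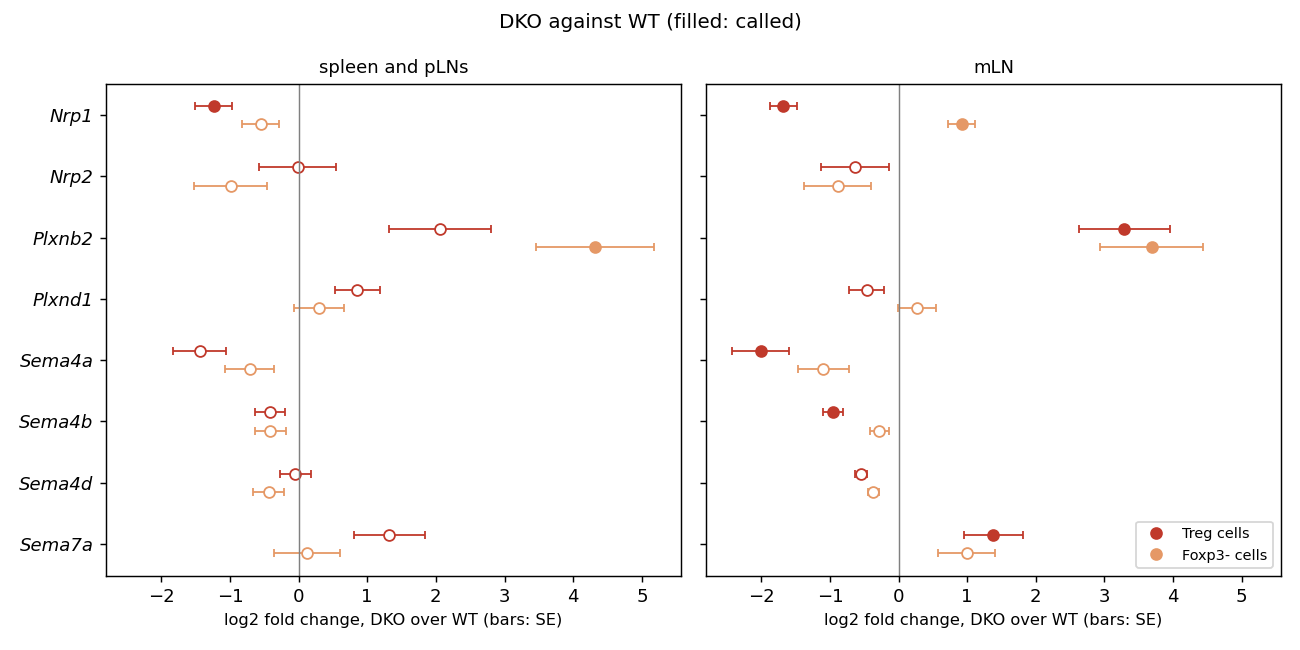
DKO against WT for the 8 genes, spleen and pLNs on the left and mLN on the right: the horizontal axis is the log2 fold change by edgeR with whiskers of 1 SE, the vertical axis the gene, the 2 colours are Treg and Foxp3- cells, and filled points were called (adjusted p at most 0.05 and at least 1.5-fold). In mLN Treg cells Nrp1 (-1.68), Sema4a (-2.01) and Sema4b (-0.96) lie left of 0 and Plxnb2 (3.29) and Sema7a (1.38) right of it.

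Counted over the 8 members, 5 were called between DKO and WT Treg cells in mLN, 3 lower (Nrp1, Sema4a, Sema4b) and 2 higher (Sema7a, Plxnb2). Of all genes tested there, 11.9% were called, 3.43% lower and 8.5% higher. In 6 of 8 members the groups did not overlap, against 40.5% of all genes, and the members' median log2 fold change was -0.59 against 0.00 for all genes. In Treg cells of spleen and pLNs 1 of 8 was called, lower (Nrp1), where 1.74% of genes were called, 0.605% lower and 1.14% higher. There 6 of 8 did not overlap, against 54.2% of all genes, and the medians were -0.03 and 0.02.

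In Foxp3- cells 2 of 8 were called in mLN, both higher (Nrp1, Plxnb2), where 3.43% of genes were called, 3.12% higher and 0.304% lower. The groups of 6 members did not overlap, against 20.9% of genes. In spleen and pLNs 1 of 8 was called, higher (Plxnb2), where 0.819% were called, 0.77% higher and 0.0489% lower. The groups of 4 members did not overlap, against 41.9% of genes. Nrp1 was called lower in DKO Treg cells and higher in DKO Foxp3- cells of mLN, and Plxnb2 was called higher in both cell types there.

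Between Treg and Foxp3- cells, 3 of 8 members were called in WT mLN, Nrp1 and Plxnd1 higher and Sema4a lower in Treg cells. Of all genes 10.1% were called, 6.91% higher and 3.14% lower, and 7 members against 41.5% of genes did not overlap. In WT spleen and pLNs 4 were called, Nrp1 and Plxnd1 higher and Sema4a and Sema7a lower, where 4% of genes were called, 2.48% higher and 1.52% lower, and 7 members against 55.3% of genes did not overlap. In DKO mLN 3 were called in the same directions as in WT mLN, where 11.2% of genes were called, 7.75% higher and 3.49% lower, and 2 members against 27.4% did not overlap. In DKO spleen and pLNs 3 were called, again Nrp1 and Plxnd1 higher and Sema4a lower, where 3.77% were called, 2.16% higher and 1.61% lower, and 3 members against 32.7% did not overlap.

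**Figure D4:**
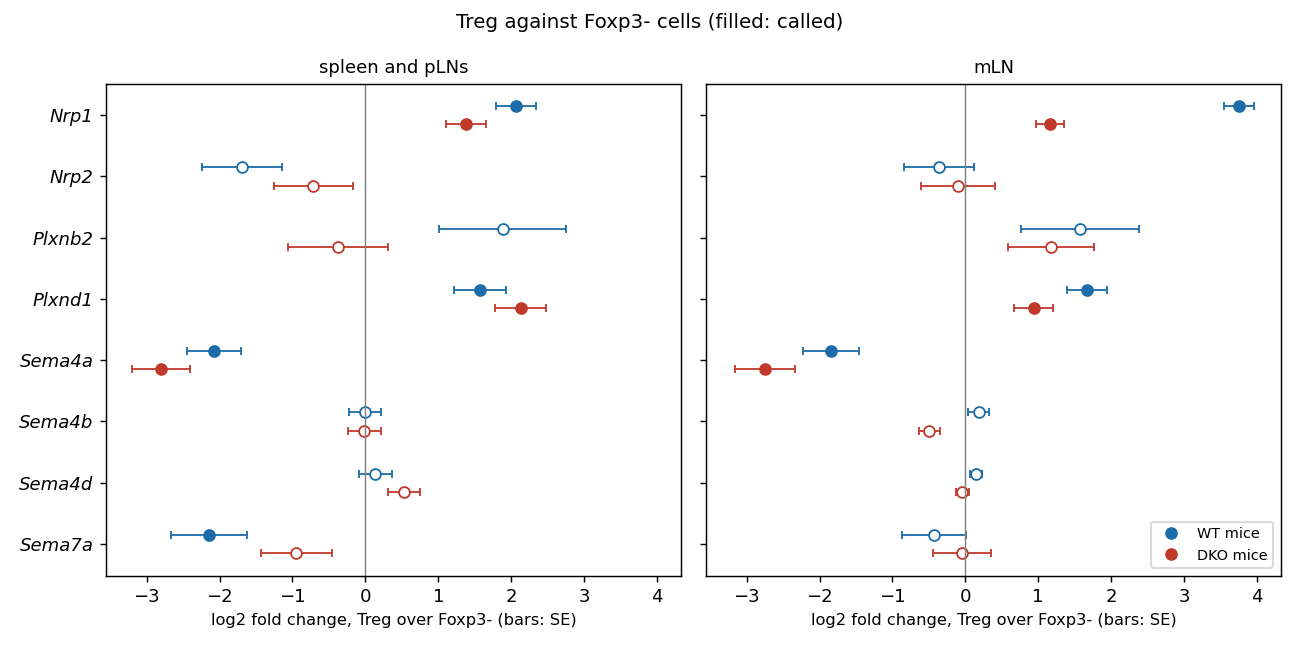
Treg against Foxp3- cells for the 8 genes, spleen and pLNs on the left and mLN on the right: the horizontal axis is the log2 fold change by edgeR with whiskers of 1 SE, the vertical axis the gene, the 2 colours are WT and DKO mice, and filled points were called. Nrp1 lies right of 0 in all 4 comparisons (1.16 to 3.75) and Sema4a left of 0 in all 4 (-2.80 to -1.84).

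Of a list of 23 further semaphorins and plexins, the genes called between genotypes were all higher in DKO cells. In mLN Treg cells 6 of the 21 tested were called, all higher, where 11.9% of all genes were called and 8.5% were higher. The list had a median log2 fold change of 1.44 against 0.00 over all genes. Only 10 of the 23 averaged 1 CPM or more in some group, so the medians of this list rest in part on genes with few reads. Sema4f, a class 4 semaphorin, went from 16.1 to 43.6 CPM (1.44, SE 0.29, edgeR adjusted p 0.00408). Sema6d, whose known receptor is Plxna1, went from 2.1 to 7.49 CPM (1.82, adjusted p 0.0103), and Sema4c, a ligand of Plxnb2, from 1.80 to 6.39 CPM (1.81, adjusted p 0.0187). Plxnc1, the receptor of Sema7a, went from 53.1 to 88.5 CPM (0.74, SE 0.19, adjusted p 0.0165), and the other called genes, Sema6a and Sema6b, were under 1 CPM. Plxnb1, the receptor of Sema4d, was 6.85 CPM in WT and 11.5 CPM in DKO, not called (0.75, adjusted p 0.179). In Treg cells of spleen and pLNs 1 of 20 tested was called (1.74% of all genes were), Sema4f (0.68, SE 0.15, 20.7 to 33.3 CPM, adjusted p 0.0432), with a list median of 1.10.

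The called genes of this list in Foxp3- cells were Sema6d and Sema4c in mLN (2 of 21, where 3.43% of all genes were called) and Sema6d in spleen and pLNs (1 of 20, where 0.819% were), with list medians of 0.92 and 0.91. Sema6d went from 0.728 to 5.30 CPM in mLN (2.91, edgeR adjusted p 0.00877) and from 1.17 to 11.1 CPM in spleen and pLNs (3.24, adjusted p 0.0462), and Sema4c from 0.636 to 3.83 CPM in mLN (2.56, adjusted p 0.0215). Calls in this and the following gene lists are those of the 4-group edgeR fit, and their alternatives are not given. With edgeR on the 2 groups alone, calls over all genes in Foxp3- cells fell from 575 to 2 in mLN. They fell from 134 to 1 in spleen and pLNs. Between cell types in WT mLN, Plxnc1 (0.87), Plxna1 (0.79) and Sema6c (1.08) were higher and Sema4f (-1.41, adjusted p 0.0049) lower in Treg cells.

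**Figure D5:**
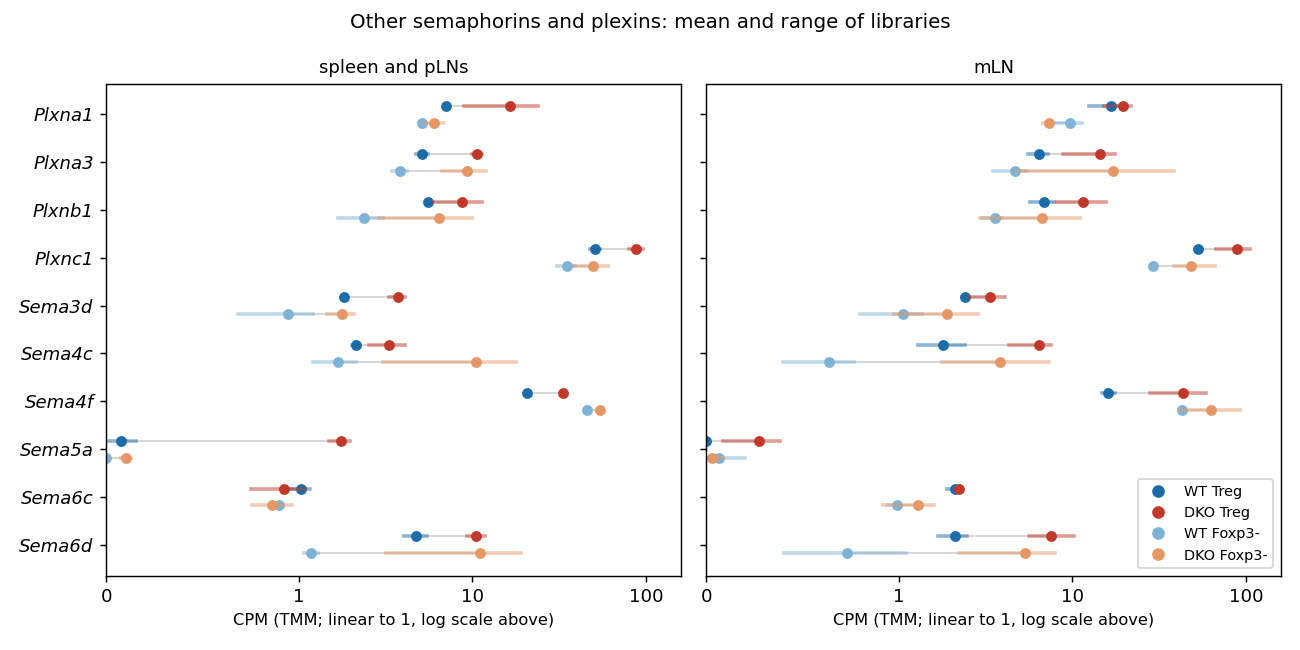
The 10 further semaphorins and plexins that averaged 1 CPM or more in some group: the horizontal axis is CPM, linear up to 1 and logarithmic above it, the vertical axis the gene, points are group means, thick lines the range of the libraries, and colours the 4 groups, with spleen and pLNs on the left and mLN on the right. Sema4f has the DKO Treg mean (43.6 CPM) right of the WT Treg mean (16.1 CPM) in mLN.

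Of 15 other ligands and receptors of these molecules (VEGF family, VEGF receptors, Met, Erbb2, integrins, CD72 and Tgfb1 among them), Vegfc was called higher in DKO cells of both types in both tissues. Vegfc, a growth factor of lymphatic vessels, went from 1.32 to 14.9 CPM in Treg cells of spleen and pLNs (3.49, SE 0.57, edgeR adjusted p 0.0151) and from 0.395 to 4.27 CPM in mLN Treg cells (3.38, SE 0.66, adjusted p 0.00387). In Foxp3- cells it was 0.0332 and 0.932 CPM in WT and DKO mLN, and at 0 in both WT libraries against a mean of 1.32 CPM in DKO of spleen and pLNs. Erbb2, a coreceptor of plexins of the B type, was at 0 in the 3 WT Treg libraries of mLN and at a mean of 1.05 CPM in DKO. These were the list's 2 called genes of 15 in mLN Treg cells, a share near the 11.9% of all genes called there. Itgb1, the beta chain of the Sema7a receptor integrin, had a called interaction in mLN (-0.88, adjusted p 0.0187), at 277 CPM in WT Treg, 151 CPM in WT Foxp3- and 211 CPM in both DKO cell types.

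Among 28 signalling partners downstream of neuropilins and plexins (27 tested), 2 were called in mLN Treg cells and 4 in mLN Foxp3- cells, all higher in DKO. Of all genes, 11.9% and 3.43% were called in these comparisons, so in Treg cells the list's share was below that of all genes. Farp1, a guanine nucleotide exchange factor that binds plexins, went from 14.6 to 34.6 CPM in mLN Treg cells (1.24, SE 0.36, edgeR adjusted p 0.0293) and from 6.33 to 32.3 CPM in mLN Foxp3- cells (2.36, SE 0.39, adjusted p 0.0087). Dpysl3, a collapsin response mediator, was at 0 in all WT Treg libraries of mLN and at 6.58 CPM in DKO, and at 0.0225 and 9.60 CPM in Foxp3- cells. Crmp1, of the same family, went from 11.9 to 30.2 CPM in mLN Foxp3- cells (1.36, edgeR adjusted p 0.0364). In Foxp3- cells of spleen and pLNs it went from 19.1 to 41.7 CPM (1.13, edgeR adjusted p 0.0426). It was the 1 gene called there of the 27 tested, where 0.819% of all genes were called. Rnd3, a small GTP-binding protein, was at 0.0949 and 4.53 CPM in WT and DKO Foxp3- cells of mLN. In Treg cells of spleen and pLNs edgeR called 0 of 27, and 8 had an unadjusted p under 0.05, as 20.4% of all genes did. The list median was 0.24 in mLN Treg cells and 0.18 in mLN Foxp3- cells.

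Of 12 genes of the AKT and FOXO axis that Sema4a and Nrp1 are known to act on, 4 were called in mLN Treg cells, all lower in DKO, where 11.9% of all genes were called and 3.43% were lower. The list median was -0.52 against 0.00 over all genes. Klf2, Ccr7 and S1pr1, FOXO-dependent genes of T cell circulation, went from 244 to 146 CPM (-0.74, SE 0.14, edgeR adjusted p 0.00353), from 366 to 191 CPM (-0.94, adjusted p 0.0171) and from 491 to 292 CPM (-0.75, adjusted p 0.0206). Foxo3 itself went from 39.3 to 20.9 CPM (-0.91, SE 0.21, adjusted p 0.00883). Foxo1 was not called (-0.64, SE 0.24, edgeR adjusted p 0.0853). In Treg cells of spleen and pLNs edgeR called 0 of 12, with 3 at an unadjusted p under 0.05 (20.4% of all genes) and a median of -0.31. In Foxp3- cells it called 0 of 12 in either tissue, with 1 at an unadjusted p under 0.05 in mLN (18.7% of all genes) and 6 in spleen and pLNs (12.9% of all genes).

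The genes whose levels ran most like Nrp1 over the 12 mLN libraries were Inpp5f, Vps54 and Entpd1, with Pearson r of log2 CPM of 0.989, 0.989 and 0.981 among 7816 genes of at least 10 CPM on average. Over the 8 libraries of spleen and pLNs the r with Nrp1 was 0.895, 0.816 and 0.977. These are descriptions: the libraries fall into 4 groups, so such an r mostly reflects the group means. Entpd1, which encodes the ectonucleotidase CD39, was at 68.3 CPM in WT Treg, 3.57 CPM in WT Foxp3-, 22.1 CPM in DKO Treg and 8.44 CPM in DKO Foxp3- cells of mLN.

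Some markers of other cells moved with genotype (pairs of values after single markers are WT and DKO group means). The sum of 9 myeloid markers was 2.95 to 5.18 CPM in WT and 14.6 to 54.7 CPM in DKO Treg cells of mLN, and 3.07 to 4.94 CPM in WT and 12.5 to 33.9 CPM in DKO Treg cells of spleen and pLNs. In mLN Treg cells 3 of the 9 were called higher (Fcer1g, Itgam, Cd68), 7 had a log2 fold change above 0 and the list median was 2.72. Of all genes 11.9% were called in this comparison, 8.5% higher and 3.43% lower. Fcer1g in DKO had a median of 0.0764 CPM and a maximum of 36.8 CPM, so its rise came from a single library. Csf1r, which defines macrophages, was 0.0876 and 0.0719 CPM and Lyz2 1.31 and 0.549 CPM. In Treg cells of spleen and pLNs 2 were called higher, Csf1r (0.0732 and 1.93 CPM) and Itgam, where 1.14% of all genes were. The sum of 7 B cell markers was 31.5 to 40.2 CPM in WT and 39.0 to 104 CPM in DKO Treg cells of mLN, where Blk (0.725 and 32.8 CPM), Cd22 and Pax5 were called higher and Cd79b lower. The sum of the endothelial markers listed (5 of 8), most of it Pecam1, was 138 to 172 CPM in WT and 111 to 143 CPM in DKO, with Tek at 0 in all 6 libraries and Cdh5 at most 0.287 CPM in DKO. Of these 5, Prox1 (0.346 and 1.71 CPM) and Egfl7 (0.235 and 1.41 CPM) were called higher in DKO. The sum of 10 dendritic cell markers was 34.2 to 39.4 CPM in WT and 24.3 to 31.2 CPM in DKO, with Clec9a at 0 throughout. Of these 10, Zbtb46 (1.11 and 6.31 CPM) and Itgax (0 and 0.427 CPM) were called higher in DKO and Irf8 (29.8 and 13.8 CPM) and Xcr1 (1.78 and 0.557 CPM) lower. The sum of the stromal markers was 1.41 to 2.96 CPM in WT and 2.59 to 11.5 CPM in DKO Treg cells of mLN, with Pdgfrb called higher (0.120 and 5.61 CPM) and Col1a2 lower, and that of the 2 CD8 chains was 16.0 to 20.8 CPM in WT and 2.95 to 3.94 CPM in DKO. In mLN DKO Foxp3- cells the myeloid sum was 8.43, 27.3 and 11.8 CPM, highest in replicate 2, where Plxnb2 was highest too (WT 7.49 to 9.48 CPM). Of the 9 myeloid markers 0 were called in these cells, where 3.43% of all genes were. Itgam alone reached 23.6 CPM and Cd68 3.71 CPM, while Csf1r was at most 0.141, Tyrobp 0.532 and Lyz2 0.887 CPM. In mLN DKO Treg replicates 1, 2 and 3 the myeloid sum was 14.6, 26.8 and 54.7 CPM. Plxnb2 was 48.7, 45.8 and 28.3 CPM there, lowest in the library with the highest sum. In spleen and pLNs the myeloid sum was higher in replicate 1, as Plxnb2 was, at 33.9 and 12.5 CPM in DKO Treg replicates 1 and 2 and at 30.3 and 22.4 CPM in DKO Foxp3- replicates 1 and 2 (WT Foxp3- 8.66 and 9.65 CPM). The B cell sum there was 60.4 and 21.8 CPM in DKO Treg cells (WT 38.2 and 34.0 CPM) and 45.1 and 25.04 CPM in DKO Foxp3- cells (WT 16.9 and 13.8 CPM). Whether such cells were present, and any part they had in the results above, was not tested.

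The authors' TPM place DKO Treg cells higher than TMM-scaled CPM do, by the same amount for every gene, 0.33 on the log2 scale in spleen and pLNs and 0.18 in mLN. In Foxp3- cells the shift was 0.24 and 0.07. Relative to these shifts the differences of the 8 genes are as given. On the TPM scale without that allowance, Nrp1 in DKO Treg cells was still lower in both tissues, whereas Sema4d and Nrp2 in spleen and pLNs Treg cells, which were not called, had log2 fold changes above 0 in place of just below it. Between cell types TPM placed Treg cells higher, by 0.07 (WT) and 0.16 (DKO) in spleen and pLNs and by 0.12 and 0.23 in mLN. Mean TPM was thus higher in Treg cells, against CPM values below 0, for Sema4d, Sema7a and Nrp2 in DKO mLN. The same held for Sema4b in both genotypes of spleen and pLNs, and none of these was called.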

How the data were processed

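RNA from 20 sorted CD4+ T cell samples was sequenced as single-end reads from TruSeq stranded libraries. The authors mapped the reads to mm9 using TopHat2 2.1.1, which was set to report 1 position for each read, and featureCounts (Subread 1.4.3-p1) assigned them by strand to RefSeq genes. The deposited counts are not normalized. The authors also deposited TPM, by a calculation not given in the sources used here. Groups and replicate numbers came from the labels, and 0 columns were left without a sample.

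Each tissue was fitted alone with edgeR 4.0.16 (R 4.3.3) on the counts: TMM scaling, genes with at least 1 read in all, 4 groups in a single quasi-likelihood fit, no block. Genes were called if the p-value, adjusted by Benjamini-Hochberg over all genes tested (16357 in spleen and pLNs, 16784 in mLN), was 0.05 or less and the change 1.5-fold or more, and for the interaction by the adjusted p alone. The biological coefficient of variation was 21.6% and 17.7%. Replicates are labelled as separate samples. The estimate of the spread of each gene is shared over all 4 groups, so a p-value does not measure the spread of the compared groups alone. DKO replicates were less alike than WT replicates. A count of 3 was taken as the floor, which covers counting error only. Log2 CPM for the likeness to Nrp1 used a prior count of 2. The fits were tested on simulated counts.

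The 8 members, the other gene lists and the tests were chosen with earlier results of these data known. All 8 members were tested in every comparison, though not every value is printed. Of the other gene lists, as far as a comparison is described, the genes called were named, or, with more than 5, those with the largest change whose higher group averaged 1 CPM or more. Not every comparison of these lists, or of the marker lists, is described. A few genes not called were added after their values were seen (Plxnb1, Foxo1). In mLN the Treg and Foxp3- samples of the same genotype and number deviated together from their group means (correlation 0.138 to 0.544 in all 6 pairs), so the number was taken to mark a mouse, from the data rather than the labels. Alternatives used DESeq2 1.42.0, other filters, scalings and blocks, and each library left out. Start regions came from RefSeq (GRCm38.p6) and were matched to NCBIM37, and gene positions came from GENCODE M1. Single genes of some lists are not reported here. Figures were drawn with matplotlib 3.10.9.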

Additional observations from a re-analysis of the deposited data

Results flagged for a closer look

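Nrp1 had a genotype effect in mLN that differed between Treg and Foxp3- cells by the interaction test (-2.60 on the log2 scale, edgeR adjusted p 0.00588). The effect on Nrp1 in Foxp3- cells was -0.55 in spleen and pLNs and 0.92 in mLN. The effect on Plxnd1 in Treg cells was 0.86 in spleen and pLNs and -0.46 in mLN. The differences between tissues were not tested, because the 2 tables were scaled separately, and neither Plxnd1 value was called.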

How the results depend on the processing

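Over the alternatives, 1007 values of single members kept their direction and their side of the threshold, 59 lost a call, 40 gained one and 46 changed sign, and the causes were not tested. In mLN Treg cells the calls of Nrp1, Sema4a, Sema4b and Plxnb2, and in mLN the Nrp1 interaction, were kept in every alternative run. The number of the 8 members called between DKO and WT Treg cells of spleen and pLNs was 1. It became 2 with DESeq2 on 4 groups and 3 with DESeq2 or edgeR on 2 groups. It became 0 with filterByExpr, a robust prior or the replicate number as a block (Nrp1 -1.25, edgeR adjusted p 0.0698). In Foxp3- cells of spleen and pLNs 1 became 0 with edgeR on 2 groups, filterByExpr, the robust prior or the number block (Plxnb2 3.93, adjusted p 0.0632), and in mLN 2 became 0 with edgeR on 2 groups or the robust prior. Between cell types in spleen and pLNs, 4 in WT became 1 with filterByExpr and 2 with the robust prior, and 3 in DKO became 1 with the robust prior. Leaving out DKO replicate 1 of both cell types leaves 1 library in each DKO group, so the WT pairs alone give the spread. No counts are given for that setting. A group of spleen and pLNs with a library left out is assumed to vary like the other groups.

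With 1 library left out at a time, the members called in spleen and pLNs were 0 to 2 (Treg), 0 to 6 (Foxp3-), 0 to 1 (WT cell types), 0 to 5 (DKO cell types) and 0 to 2 (interaction), and in mLN 4 to 6, 0 to 3, 3 in every case, 2 to 5 and 1 to 3. Same-numbered WT and DKO samples correlated at 0.305 and 0.298 in spleen and pLNs (2 pairs) and at -0.0532 to 0.234 in mLN, and Treg and Foxp3- samples of spleen and pLNs at 0.319 and 0.309. The mouse block changed no member's call. It changed the genes called between cell types of spleen and pLNs from 654 to 360 in WT and from 617 to 348 in DKO.

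Over all genes, the 285 called in Treg cells of spleen and pLNs became 24 with filterByExpr, 648 and 976 with DESeq2 on 4 and 2 groups, 1256 with edgeR on 2 groups, 114 with the robust prior and 4 to 1696 with a library left out. The 134 in Foxp3- cells there became 376 with DESeq2 on 4 groups, 1 with filterByExpr or edgeR on 2 groups, 19 with the robust prior and 1 to 2751 with a library left out. In mLN the 575 of Foxp3- cells became 929 with DESeq2 on 4 groups, 2 with edgeR on 2 groups and 57 to 1453 with a library left out, and the 47 of the interaction 409 with DESeq2.

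No value that changed sign had been called. With 1 library left out at a time, the values that changed sign ran, in spleen and pLNs, from -0.21 to 0.21 (Nrp2) and -0.28 to 0.14 (Sema4d) in Treg cells, from -0.69 to 0.63 (Sema7a) and -0.015 to 0.55 (Plxnd1) in Foxp3- cells, from -0.068 to 0.059 (Sema4b) between WT cell types, and from -1.39 to 0.51 (Nrp2), -0.36 to 0.44 (Sema4b) and -1.28 to 1.99 (Plxnb2) between DKO cell types. For the interaction there they ran from -1.30 to 0.23 (Sema4a), -0.35 to 0.45 (Sema4b), -3.16 to 0.11 (Plxnb2) and -0.048 to 0.97 (Plxnd1). In mLN they ran from -0.13 to 0.51 (Plxnd1) in Foxp3- cells, from -1.03 to 0.29 (Nrp2), -0.17 to 2.1e-05 (Sema4d) and -0.65 to 0.49 (Sema7a) between DKO cell types, and from -0.67 to 0.66 (Nrp2), -0.22 to 0.93 (Sema7a) and -0.91 to 1.18 (Plxnb2) for the interaction. Without DKO replicate 1 of both cell types of spleen and pLNs, Nrp2 in Treg cells became 0.034, Sema7a and Plxnd1 in Foxp3- cells -0.68 and -0.0080, Sema4d and Plxnb2 between DKO cell types -0.016 and 1.08, and Sema4d in the interaction -0.14. With DESeq2's size factors Nrp2 in those Treg cells became 0.000104. The number block gave 0.013 and the mouse block 0.037 for Sema4b between those DKO cell types, and 0.014 and 0.043 for its interaction, which was 0.0013 with filterByExpr. The mouse block gave 0.11 for Plxnb2 between DKO cell types of spleen and pLNs and 0.11 for its interaction in mLN. Depth limits the scarce members, such as Nrp2 at 9 to 65 reads per library.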
